A study of Mus musculus with 7 samples.

Results

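The genes described here encode proteins that splice mRNA, bind it or govern its decay. There were 58 of them, given as a list of gene names from which genes classed as writers, readers and erasers of N6-methyladenosine (m6A) were set aside. The rule used no measured value, but the members were chosen with earlier results of these data known. They were looked up by name, older names included, in a list of m6A peaks from regenerating mouse muscle and in a list from C2C12 cells, a mouse myoblast line. Of the 58 genes, 30 had at least 1 peak in muscle, 25 had at least 1 in C2C12, 16 were in both lists and 19 were in neither. Over the 21900 protein-coding genes of the RefSeq annotation, 16.9% were listed in muscle and 17.6% in C2C12.

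The m6A modification is written onto nascent mRNA by METTL3 with its partner METTL14, most often at an adenosine inside a short motif that contains GGAC, and it tends to lie in long internal exons and near stop codons. Proteins that read it affect splicing, export, translation and decay of the mRNA. SR proteins and hnRNP proteins decide which exons are joined, often with opposing effects, and many of their genes also make alternatively spliced transcripts that do not encode the full protein. Other RNA-binding proteins attach to 3'UTRs and steer decay, deadenylation or silencing by microRNAs.

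In m6A MeRIP-Seq, mRNA is fragmented, the fragments that carry m6A are pulled down with an antibody (IP), and they are sequenced beside untreated fragments (input). In muscle each genotype, METTL3 cKO or CTL, was measured with 1 IP and 1 input library. In C2C12 there were 2 IP libraries beside 1 input library. The muscle list held 5412 peaks, each with 1 fold enrichment of IP over input and 1 p-value, and every peak in it met an FDR of 0.05 in the authors' comparison of the genotypes. It is thus a list of peaks that the authors called differential, and a gene that is not in it may still carry m6A. With 1 IP and 1 input library per genotype, that FDR cannot measure the spread between libraries of a genotype. The C2C12 list held 5433 peaks with their place and annotation and no other value.

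The METTL3 cKO mice were Pax7CreERT2; METTL3 flox/flox and the CTL mice Pax7CreERT2; METTL3 wt/wt, on a C57BL/6 background. Both groups were given tamoxifen, then CTX (cardiotoxin, a snake venom toxin that injures muscle fibres), and were sampled at day 2. The Pax7 promoter drives the Cre, so that METTL3 is deleted in Pax7+ muscle stem cells (MuSCs) and their descendants, while the other cells of the muscle keep it. The source of these libraries is given as muscle and their cell type as muscle stem cell. Of the markers examined, 4 of 7 for myogenic cells had a listed peak in muscle (Pax7, Myod1, Myog and Des), and so did 3 of 6 for macrophages (Ptprc, Itgam and Mrc1), 2 of 4 for fibroblasts and 1 of 3 for endothelial cells. In C2C12 the counts were 5 of 7, 0 of 6, 3 of 4 and 0 of 3. The part of these other cells in the values below was not tested, and in such bulk samples fewer cells of a type and less RNA per cell cannot be told apart. The C2C12 IP libraries carry the genotype Knockout and their input Normal, while the study describes no knockdown for them, and whether the cells were growing or differentiating was not given in the sources used here. The same holds for the age of these mice and for how many were pooled.

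With 1 IP library per genotype no test between genotypes was made, and nothing below gives a direction of change. The lists hold no read counts, so the depth is unknown. A fold enrichment compares RNA that was pulled down with RNA that was present, and a strong value does not mean an abundant transcript.

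Of the genes of SR proteins and their relatives, 7 of 13 (53.8%) were listed in muscle, near the 51.7% of all members, with 17 peaks between them. The top values belonged to the very large scaffold proteins of nuclear speckles. *Son*, a speckle scaffold needed for splicing of weak introns, had 4 coding peaks with fold enrichments of 120, 14.9, 14.5 and 5.12. The strongest covered 2189 bp at chr16:91655313-91657501 (GRCm38, + strand) and ranked 751 of 5412. The peaks of *Son* lay side by side and covered 4649 bp together, the greatest covered length of any member. *Srrm2*, which encodes another speckle scaffold and a part of the active spliceosome, had 6 coding peaks at fold enrichments of 55.3, 11.7, 5.43, 4.69, 3.52 and 2.85. Only 19 genes in the muscle list had as many peaks or more.

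The smaller SR genes looked different, since 4 of their 7 peaks were placed by the authors in an exon and neither in coding sequence nor in a UTR, which is called the exon class here. *Srsf3*, an SR protein that also promotes mRNA export, had 1 such peak with a fold enrichment of 31.2, covering 359 bp at chr17:29039423-29039781. *Tra2a*, a splicing activator, had 1 of 16.0 at chr6:49260860-49261100. *Srsf5* had both of its peaks in this class, at 3.27 and 1.65, the latter the lowest of the SR genes. *Srsf6* had a 3'UTR peak of 6.07, and *Srsf11* had a coding peak of 7.83 and a 3'UTR peak of 4.30. *Clk1*, a kinase that phosphorylates SR proteins, also had an exon-class peak, with a fold enrichment of 14.0. Of this group *Srsf1*, *Srsf2* and *Srrm1* were in neither list, nor was *Prpf8*, the central scaffold of the spliceosome. *Srsf4*, *Srsf7* and *Tra2b* were listed in C2C12 alone.

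The hnRNP genes, whose products coat nascent RNA and often repress exons, had the weakest peaks. Of the 13 member genes (PTB proteins included) 6 were listed in muscle. Their strongest peaks had a median fold enrichment of 2.71, and 0 of 6 reached the median of all listed peaks, 12.9. *Hnrnpc* was highest with a 3'UTR peak of 5.79, followed by *Hnrnpl* with a coding peak of 5.40. The others were coding peaks, of 3.20 for *Hnrnpm*, 2.21 for *Hnrnpu* and 1.98 for *Ptbp1*, the last at a place where the span of *Plppr3* overlaps. *Hnrnpf* was lowest. Its 4 coding rows, at 1.62, 1.33, 1.32 and 1.31, overlap in pairs and so describe 2 places, and they ranked between 5341 and 5402 of 5412. In C2C12, where no strength is given, 8 of the 13 hnRNP genes were listed, which included *Hnrnpa2b1*, *Hnrnpk* and *Hnrnpr* with no muscle peak. *Hnrnpa1*, *Hnrnpd*, *Hnrnph1* and *Ptbp2* were in neither list.

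Among the tissue-regulated splicing factors and other RNA-binding proteins, 9 of 12 had a muscle peak and 3 of 12 a C2C12 peak. *Celf1*, a regulator of splicing and decay that opposes MBNL proteins in developing muscle, had 3'UTR peaks of 38.8 and 20.7 and a 5'UTR peak of 3.27. *Qk*, which encodes Quaking and regulates splicing in muscle and glia, had 4 peaks along its 3'UTR at 25.2, 6.00, 4.93 and 2.60 and a 5'UTR peak of 8.10. *Tardbp*, whose product TDP-43 binds UG-rich RNA and has an alternatively spliced 3'UTR, had 1 long 3'UTR peak of 19.3 over 781 bp. *Rbfox2* had 3 peaks at 7.90, 7.42 and 2.60 in its 3'UTR. Of these 9 genes 7 had a peak in the 3'UTR, and the others were *Fxr2* (5'UTR, 9.75) and *Mbnl2* (exon class, 3.96). *Mbnl2* had the lowest strongest peak of the group. *Mbnl1*, *Elavl1* and *Fxr1* had strongest peaks of 6.49, 5.75 and 4.90, and the *Fxr1* peak lies where the span of *Dnajc19* overlaps. *Celf2*, *Khdrbs1* and *Fmr1* were in neither list.

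The 2 highest values of all members were on genes of factors that act on the 3'UTR, *Zfp36l2* and *Tnrc6b*, but not all such genes had strong peaks. *Zfp36l2*, a zinc finger protein that binds AU-rich elements and recruits the deadenylase, had the highest value, 172, in a coding peak that covered 2274 bp at chr17:84185187-84187947 on the - strand and began at the start of the RefSeq gene. Its second peak, in the 3'UTR, stood at 2.90. The related *Zfp36l1* had 3'UTR peaks of 8.09 and 2.18, and *Zfp36* was listed in C2C12 alone. *Pum2*, *Cnot1* and *Cnot3* were in neither list, so that 2 of 6 genes of AU-rich, Pumilio and deadenylation factors had a muscle peak.

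The genes of the microRNA pathway were the most evenly strong group, since the strongest peaks of all 4 with a muscle peak lay above the median of all listed peaks. *Tnrc6b*, one of the GW182 scaffolds that link Argonaute to the deadenylase, had a coding peak of 157 over 2219 bp at chr15:80879015-80881233 and 3'UTR peaks of 45.2 and 9.30. *Tnrc6a* had coding peaks of 47.1 and 12.5 and 3'UTR peaks of 7.24 and 6.15. The third paralogue, *Tnrc6c*, had 0 muscle peaks and 4 C2C12 peaks. *Dicer1*, the nuclease that makes mature microRNAs, had 3'UTR peaks of 44.2 and 26.7. *Ago2*, the Argonaute that can cut its target, had 3'UTR peaks of 23.9, 12.9 and 3.28, and the last lies outside the RefSeq span of the gene. *Drosha*, which makes the first cut in the nucleus, was in neither list. *Smg1*, the kinase that starts nonsense-mediated decay, had peaks in all of its mRNA regions, of 91.1 in the 3'UTR, 25.9 in the 5'UTR and 7.84 in the coding sequence. *Upf1*, the helicase it phosphorylates, and the exonuclease gene *Xrn1* were in neither list. Of the helicase genes, *Ddx17* had 1 C2C12 peak, and *Ddx5* and *Dhx9* were in neither list.

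**Figure D1:**
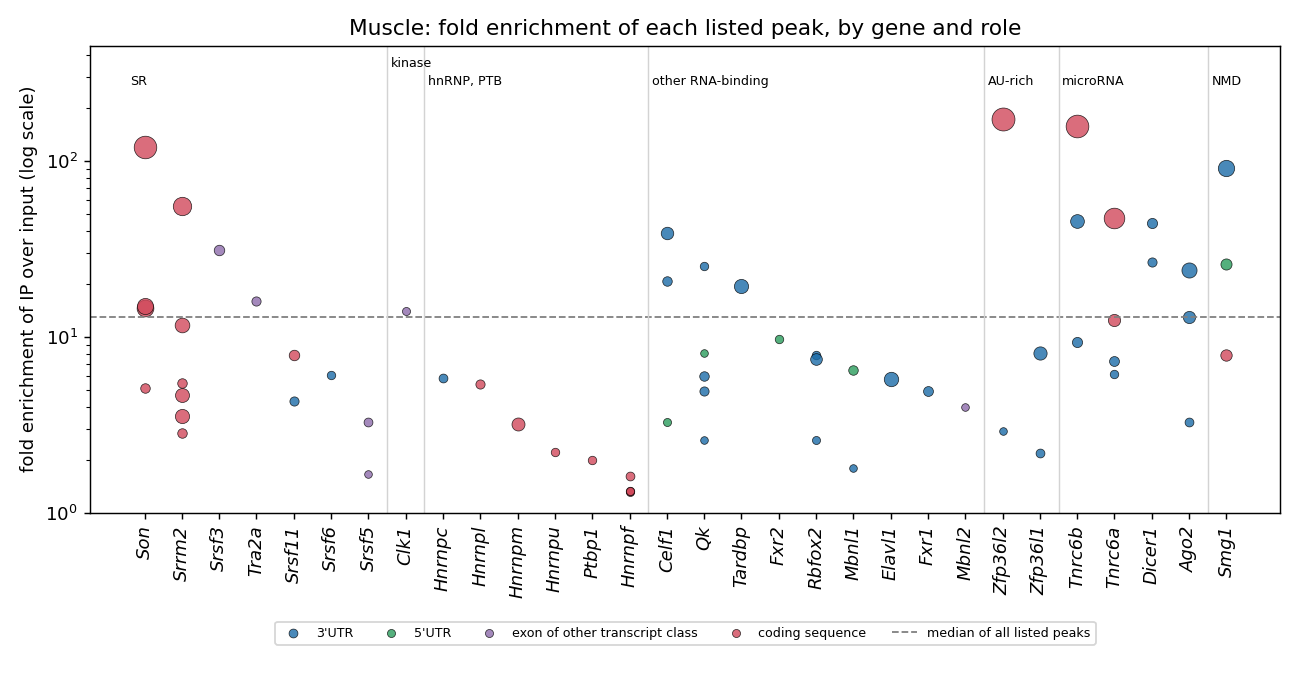
Fold enrichment of IP over input (log axis) of each of the 64 member peaks listed in muscle, by gene and role, with 1 point per peak, coloured by annotated region and larger where the peak covers more bases. The dashed line is the median of all 5412 listed peaks, 12.9, and no peak of the hnRNP and PTB genes reaches it, while those of *Zfp36l2* (172), *Tnrc6b* (157) and *Son* (120) lie highest.

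Set beside the whole list, the members were listed at a higher share than protein-coding genes at large and with lower fold enrichments. That background counts every annotated gene, expressed or not. In muscle 51.7% of the 58 genes were listed beside 16.9% of protein-coding genes, in C2C12 43.1% beside 17.6%, and in both 27.6% beside 7.32%. When muscle peaks under the median fold enrichment were left out, 14 members (24.1%) were listed in muscle beside 10.1%, and 8 (13.8%) in both lists beside 5.16%. When C2C12 peaks under the median length were left out, 15 of the 58 members were listed there beside 2189 of the 21900 genes, and these were 15 of 25 listed members beside 56.6% of listed protein-coding genes. The strongest peak of the 30 muscle genes ranged from 1.62 to 172 with a median fold enrichment of 8.92 (quartiles 5.49 and 36.9). Over all 3975 listed genes with a value the median was 19.3 (quartiles 6.88 and 76.0) and the highest 3860, and 12 of the 30 members reached that median. Of single peaks, 21 of 64 reached the median of all peaks, and 7 of 64 (10.9%) lay under a fold enrichment of 2 beside 3.46% of all peaks. The share of peaks listed at a p-value of 0, the smallest the list gives, was 17.2% both for the members and for all peaks. The 11 member peaks at 0 were on *Son*, which had 3, on *Smg1*, which had 2, and on *Srrm2*, *Tardbp*, *Zfp36l2*, *Tnrc6a*, *Tnrc6b* and *Ago2*, with 1 each. At the other end, a 3'UTR peak of *Rbfox2* was listed at a p-value of 0.0004 and one of *Tnrc6a* at 0.00039, and *Fxr2* (5.8e-06) and *Mbnl2* (4e-06) had no peak with a lower p-value. These p-values are the authors' and belong to the peak, not to the comparison of the genotypes. The members also had shorter peaks in muscle, with a median covered length of 270 bp beside 360 bp. In C2C12 the median peak length was 292 bp beside 286 bp for all peaks.

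Several peaks on 1 gene were common among the members. In muscle 10 of 30 (33.3%) had 3 or more peaks beside 6.69% of listed protein-coding genes, namely *Srrm2* with 6, *Qk* with 5, *Son*, *Hnrnpf* and *Tnrc6a* with 4, and *Ago2*, *Celf1*, *Rbfox2*, *Smg1* and *Tnrc6b* with 3. With overlapping rows counted once *Hnrnpf* fell to 2 places, which left 9 of 30 members beside 6.59%. In C2C12 3 of 25 (12%) had as many beside 7.19%, namely *Tnrc6c* with 4 and *Hnrnpm* and *Son* with 3. The 4 peaks of *Tnrc6c* were 3 coding peaks of 1073, 219 and 771 bp and a 3'UTR peak of 200 bp, and the first was the longest C2C12 peak of any member.

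The genes listed in C2C12 alone had peaks of ordinary length in the body of the gene as well. *Srsf4*, a large SR protein, had a coding peak of 373 bp and a 3'UTR peak of 287 bp, centred 26987 and 27491 bp from the start. *Zfp36*, which encodes tristetraprolin, had a coding peak of 363 bp centred 939 bp from the start. *Hnrnpr* had a coding peak of 296 bp at 28846 bp, and *Ddx17*, a helicase that acts in splicing and microRNA processing, an intron peak of 244 bp at 16184 bp. *Hnrnpk* and *Hnrnpa2b1* each had an intron peak beside a 5'UTR peak, at 2025 and 5298 bp, of 233 and 216 bp. The intron peaks lie near the shortest length in the C2C12 list, 200 bp, and no value of strength is given for any of these peaks.

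The 2 lists overlapped in part. Of the members listed in muscle 53.3% were also listed in C2C12, beside 43.2% of all protein-coding genes in the muscle list, and of those in C2C12 64.0% were also in muscle beside 41.4%. The 14 genes listed in muscle alone were *Srsf3*, *Srsf5*, *Srsf6*, *Tra2a*, *Clk1*, *Hnrnpl*, *Celf1*, *Rbfox2*, *Qk*, *Elavl1*, *Fxr1*, *Fxr2*, *Zfp36l1* and *Ago2*. Those in C2C12 alone numbered 9 and were *Srsf4*, *Srsf7*, *Tra2b*, *Hnrnpa2b1*, *Hnrnpk*, *Hnrnpr*, *Ddx17*, *Zfp36* and *Tnrc6c*. The muscle list was restricted to peaks that the authors called differential, and the C2C12 list was not. A gene in 1 list only is therefore not shown to differ in m6A between muscle and C2C12.

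**Figure D2:**
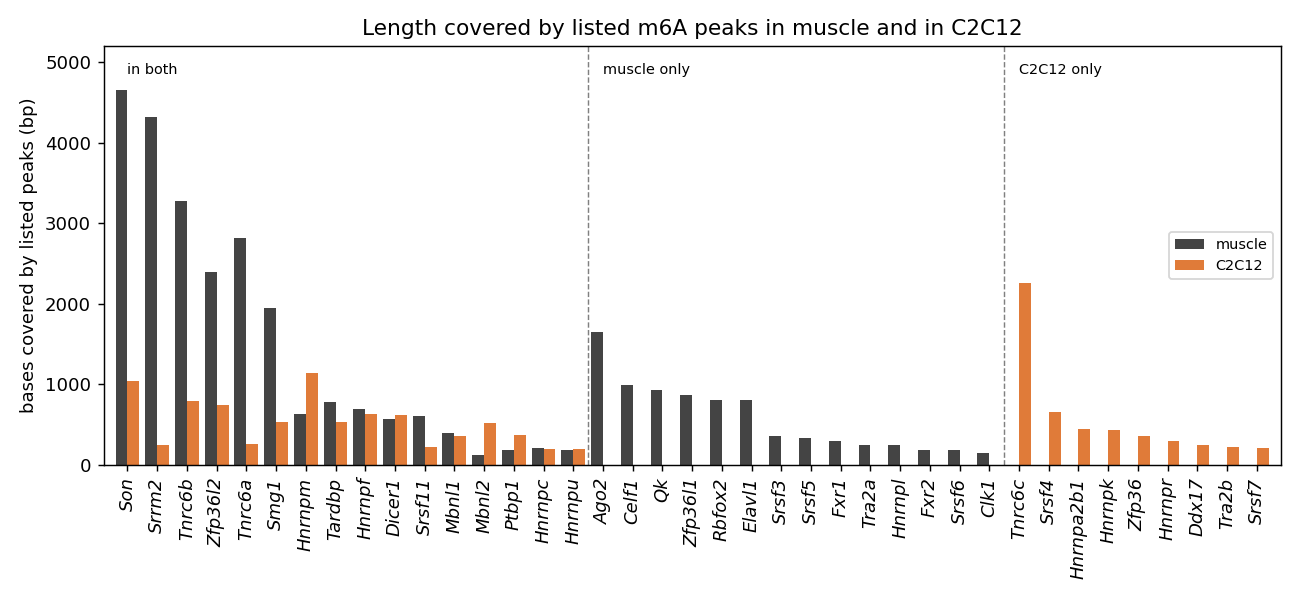
Bases covered by listed m6A peaks (bp, linear axis from 0) in each of the 39 genes with a peak, in muscle (dark bars) and in C2C12 (orange bars), grouped by the list that holds the gene. *Son* (4649 bp) and *Srrm2* (4314 bp) have the longest bars in muscle, and *Tnrc6c* (2263 bp) has the longest in C2C12 and none in muscle.

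For the genes in both lists, it was asked whether the peaks lie at the same place. Although mm10 is the only build named for the series, 9.30% of C2C12 peaks and 95.6% of muscle peaks fell inside the GRCm38 span of their gene, and no other build was tried. Peaks were therefore compared by their distance from a transcription start, where any RefSeq start of the gene could give the match. By this measure 10 of 16 members (62.5%) had a muscle and a C2C12 peak that overlap, close to the 61.2% of all protein-coding genes in both lists. From the 5' end of the gene span alone it was 7 of 16 (43.8%) beside 54.9%, and the 3 members lost were *Srrm2*, *Tnrc6a* and *Smg1*. In *Tnrc6b* both C2C12 peaks, centred 168436 and 169004 bp downstream of the start, fell inside the strongest muscle peak, which spans 167702 to 169920 bp. In *Son* the C2C12 peak at 8817 bp lay inside the muscle peak from 7489 to 9677 bp, and those at 11141 and 11645 bp lay inside the one from 10965 to 12014 bp. The strongest muscle peak of *Zfp36l2* was also matched, and those of *Srrm2*, *Tnrc6a* and *Smg1* were matched only from a start other than the 5' end of the gene span. The weak peaks of *Hnrnpm* (C2C12 at 35268 bp, muscle from 35081 to 35710 bp) and *Hnrnpf* (at 23648 and 24482 bp) were matched too.

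Counting any peak of a gene, wherever it lies, 9 of 16 members (56.2%) had a named region that occurred in both lists. The share was 61.9% of all protein-coding genes in both. This count is not of peaks at a shared place. *Tardbp* is a case where place and name part: the C2C12 peak at 9658 bp was called intron and the muscle peak from 9277 to 10057 bp was called 3'UTR. *Srsf11* was called intron at 24391 bp in C2C12 and coding from 24200 to 24666 bp in muscle. In *Zfp36l2* the C2C12 peak at 2332 bp was called 3'UTR and the muscle peak that holds it, from 0 to 2760 bp, coding. This gene is among the 9 only through its other muscle peak, in the 3'UTR with a fold enrichment of 2.90. *Hnrnpc*, *Hnrnpu*, *Ptbp1*, *Mbnl1*, *Mbnl2* and *Dicer1* had peaks in both lists at different distances. Of these *Ptbp1* is among the 9, with coding peaks in both lists. In *Dicer1* the C2C12 peaks were coding and the muscle peaks in the 3'UTR.

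**Figure D3:**
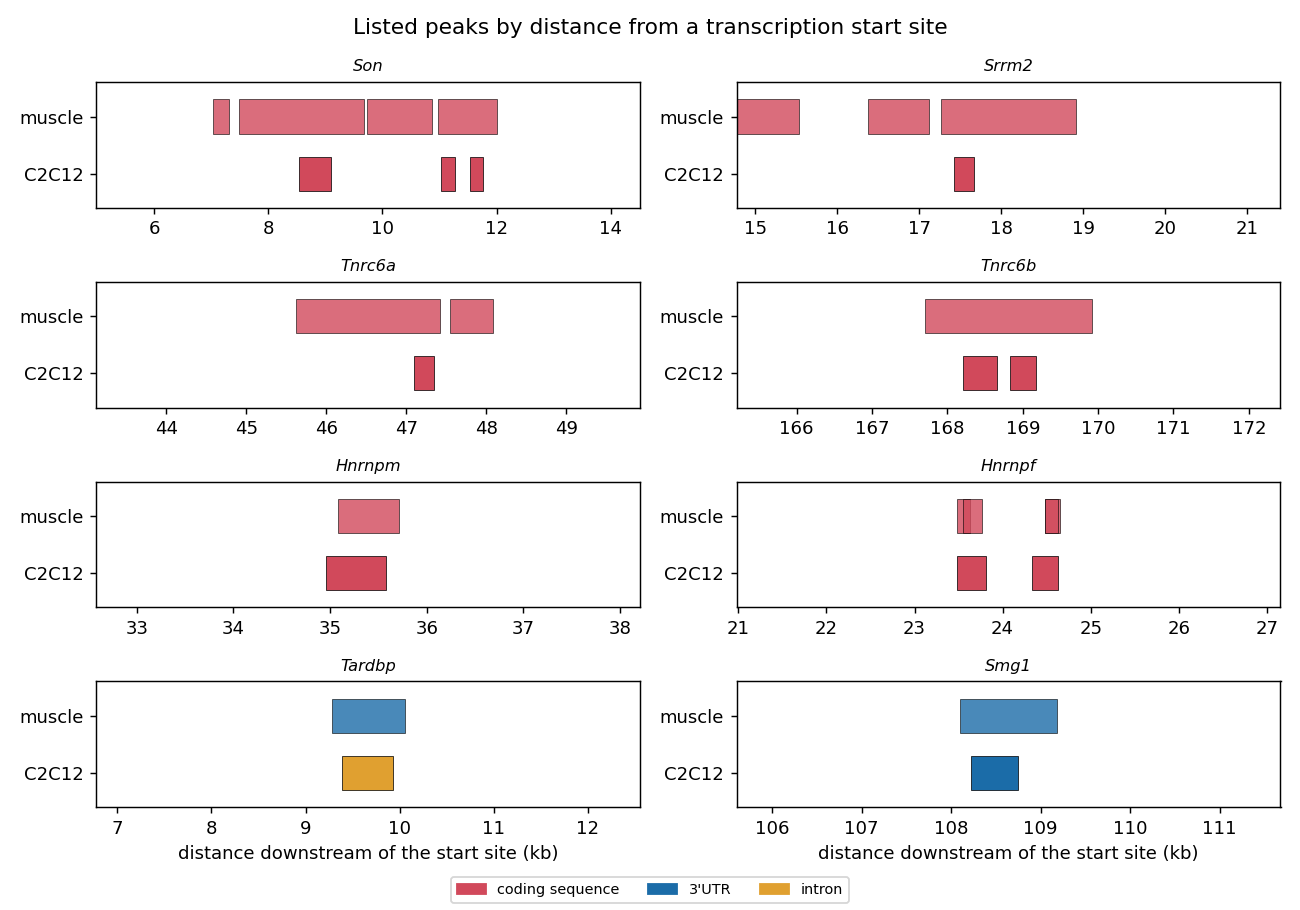
Peaks of 8 of the 10 genes with overlapping peaks in muscle (upper row) and C2C12 (lower row), by distance downstream of a transcription start (kb). They are drawn to scale and coloured by annotated region. Genes in both lists without an overlap are not drawn. For *Srrm2*, *Tnrc6a*, *Smg1* and *Tardbp* the start drawn is not the 5' end of the gene span. From that end the peaks of *Srrm2*, *Tnrc6a* and *Smg1* do not overlap. In *Tardbp* the overlapping peaks carry different region names, intron in C2C12 and 3'UTR in muscle.

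The regions of the member peaks in muscle were close to those of all peaks, and in C2C12 few of them lay in the 3'UTR. In muscle 29 of 64 member peaks (45.3%, 95% Wilson interval 33.7 to 57.4%) lay in the 3'UTR beside 50.5% of the peaks of protein-coding genes, and 24 (37.5%) in coding sequence beside 33.6%. In C2C12 4 of 38 (10.5%, 4.17 to 24.1%) lay in the 3'UTR beside 25.9% of all peaks, on *Smg1*, *Srsf4*, *Tnrc6c* and *Zfp36l2*. Coding sequence held 20 of 38 (52.6%) beside 52.6%. The 5'UTR held 6 (15.8%, 7.44 to 30.4%) beside 6.29%, and introns 8 (21.1%, 11.1 to 36.3%) beside 12.4%. The intron peaks were on *Ddx17*, *Hnrnpa2b1*, *Hnrnpk*, *Hnrnpm*, *Hnrnpu*, *Mbnl1*, *Srsf11* and *Tardbp*, 1 each. Peaks of 1 gene are not independent, and the intervals cover counting error only.

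**Figure D4:**
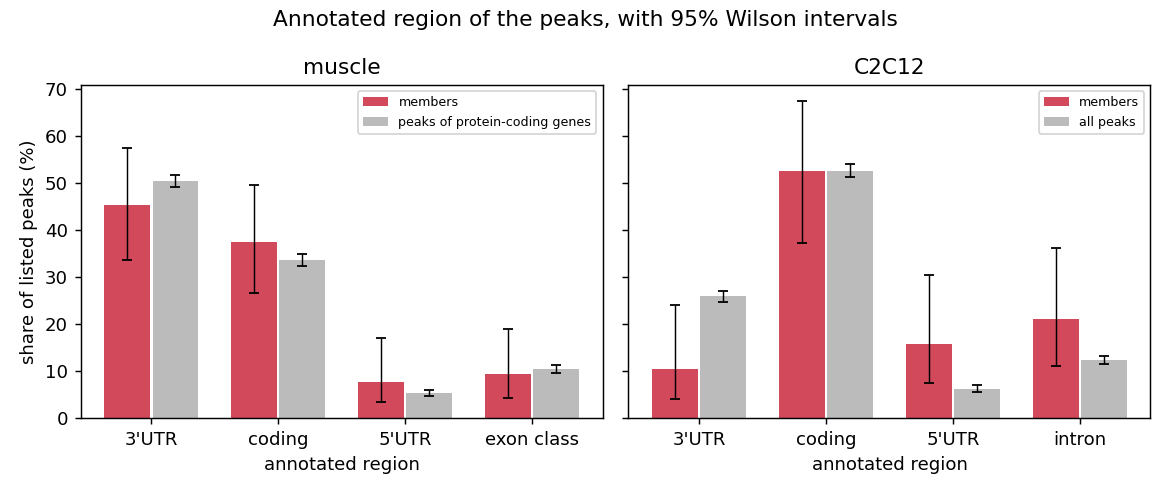
Share of listed peaks (%) in each annotated region in muscle (left) and C2C12 (right) for the members (red) and for the peaks of protein-coding genes or all peaks (grey), with 95% Wilson intervals as error bars. In C2C12 the 3'UTR bar of the members stands at 10.5% beside 25.9% for all peaks, and the 5'UTR bar at 15.8% beside 6.29%.

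Most of the 5'UTR peaks in C2C12 sat on the transcription start itself. *Hnrnpk*, *Srsf7*, *Hnrnpc*, *Tra2b* and *Hnrnpa2b1* had a peak centred 1, 11, 14, 38 and 49 bp from a start, which is 13.2% of the 38 member peaks beside 2.04% of all C2C12 peaks. All 5 reach upstream of the start. In muscle these genes had no peak there, while *Hnrnpl* had a coding peak that reaches a RefSeq start and *Smg1* a 5'UTR peak of 25.9 that also reaches one. The long coding peak of *Zfp36l2*, of 172, begins at the start of its RefSeq gene too, and its start sequence is not shown. Start sequences of the 5 genes with such a C2C12 peak are shown because those peaks are centred within 50 bp of a start. The ones of *Hnrnpl* and *Smg1* are shown because their muscle peaks reach a start, though these are not centred on it. An adenosine that follows the cap can carry a related methyl mark, m6Am, which the antibody also binds, and whether these peaks hold it was not measured. Each line gives 20 bases before a RefSeq start in lower case and the first 30 transcribed bases in capitals, 5′ to 3′ on the strand of the gene, from RefSeq on GRCm38.p6. The start from which the C2C12 list counts may be another one of the same gene.
*Hnrnpk*, chr13:58402088-58402137, - strand: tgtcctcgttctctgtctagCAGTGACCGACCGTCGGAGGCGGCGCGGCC
*Srsf7*, chr17:80207276-80207325, - strand: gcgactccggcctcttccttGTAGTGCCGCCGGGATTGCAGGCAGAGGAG
*Hnrnpc*, chr14:52103992-52104041, - strand: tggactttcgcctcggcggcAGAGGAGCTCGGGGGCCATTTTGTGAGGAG
*Tra2b*, chr16:22265976-22266025, - strand: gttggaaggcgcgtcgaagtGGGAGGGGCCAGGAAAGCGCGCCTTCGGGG
*Hnrnpa2b1*, chr6:51469816-51469865, - strand: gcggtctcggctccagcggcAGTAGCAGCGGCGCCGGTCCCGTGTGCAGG
*Hnrnpa2b1*, upstream start, chr6:51469865-51469914, - strand: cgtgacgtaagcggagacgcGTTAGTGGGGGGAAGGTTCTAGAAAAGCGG
*Hnrnpl*, chr7:28810870-28810919, + strand: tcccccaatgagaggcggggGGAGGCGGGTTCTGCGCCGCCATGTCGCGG
*Smg1*, chr7:118243608-118243657, - strand: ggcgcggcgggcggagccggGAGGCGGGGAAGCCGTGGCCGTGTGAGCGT

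By these starts *Hnrnpc* and 1 of the 2 starts of *Hnrnpa2b1* begin with an A, and the others with G or C. The letters GGAC, searched on the transcript strand in the first 50 bases from the start, were found in 2 of these 8 windows, in *Hnrnpk* and *Tra2b*, beside 18.9% of 32851 RefSeq start windows. These sites are shown with GGAC in capitals.
*Hnrnpk*, chr13:58402068-58402097, - strand: cggcgcggccgggaggcaacggcGGACtcg
*Tra2b*, chr16:22265956-22265985, - strand: gccttcgggggagtgggtgGGACcaggtta

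In *Hnrnpk* the G that opens the motif is base 44 of the transcript, and in *Tra2b* it is base 40. A match of letters is a description of the window and not a measured site.

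The muscle list also gives the positions of GGAC inside each peak. Of the 64 member peaks 38 (59.4%, 95% Wilson interval 47.1 to 70.5%) held at least 1, beside 70.6% of all peaks. They held 113 sites, or 3.55 per 1000 bp covered, beside 4.63 for all peaks. The coding peak of *Tnrc6b* held 16 in 2219 bp and that of *Zfp36l2* 11 in 2274 bp, while that of *Son*, of similar length and strength, held 1 in 2189 bp. *Srrm2* held 17 over its 6 peaks. This *Zfp36l2* peak and the strongest of *Srrm2* lie in 2 exon blocks. In peaks of several blocks 21 of 35 listed positions inside start windows matched GGAC, beside 60 of 60 in peaks of 1 block. The *Celf1* 3'UTR peak of 38.8 and the *Srsf3* peak of 31.2 held none. By region, 70.8% of coding member peaks held a site beside 84.3% of all coding peaks, and 65.5% of 3'UTR member peaks beside 62.0%. None of the 6 exon-class peaks, on *Srsf3*, *Srsf5*, *Tra2a*, *Clk1* and *Mbnl2*, held one (0 of 6, Wilson upper bound 39%), beside 75.0% of the 540 exon-class peaks of protein-coding genes. These 6 peaks were shorter, with a median covered length of 180 bp beside 360 bp for the 540. The median was 495 bp beside 599 bp for coding peaks and 270 bp beside 301 bp for 3'UTR peaks. The shares holding a site were not compared at equal length.

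There were 134 other genes of RNA processing, in 7 lists. In muscle 56 (41.8%) had a peak beside 16.9% of protein-coding genes, and in C2C12 33 (24.6%) beside 17.6%. There were 18 in both lists, beside 7.32% of protein-coding genes, and 63 in neither. The median fold enrichment of their strongest peaks was 11.8. Other SR proteins and SR kinases had 10 of 16 in muscle, led by *Bclaf1* at 46.5. Other hnRNP proteins had 8 of 14 in muscle and 7 of 14 in C2C12, led by *Hnrnph2* at 128, and their median of 21.8 stands beside the 2.71 of the hnRNP and PTB members. The core spliceosome had 9 of 28 in each list, with *Snrpa* highest at 51.9. Other regulated splicing and RNA-binding proteins had 12 of 36 in muscle and 3 of 36 in C2C12, led by *Nova1* at 140. Other deadenylation and decapping factors had 12 of 23 and 4 of 23, led by *Pan3*, a subunit of the deadenylase that trims long tails, at 207. Of other microRNA factors 1 of 8 was listed in both, *Dgcr8*, the partner of *Drosha*, at 142. Other nonsense-mediated decay factors had 4 of 9 in each list, with *Smg8*, which binds *Smg1*, highest at 151. In C2C12 the shares of other regulated splicing and RNA-binding proteins (8.33%), deadenylation and decapping factors (17.4%) and microRNA factors (12.5%) did not exceed 17.6%. Those of the remaining lists lay above it. In muscle only the microRNA factors (12.5%) lay under 16.9%.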

How the data were processed

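Peaks were called by the authors, whose processing notes name TopHat, MACS2 and mm10 without versions or roles. For muscle the authors deposited, for each peak, a fold enrichment (a ratio of IP over input), a p-value and GGAC positions. The muscle list also holds the log2 fold, p-value and FDR of the authors' own comparison of the genotypes, which were not used. Every listed peak met an FDR of 0.05 within rounding. For C2C12 the authors deposited positions, regions and distances to a start, taken here as distances to the peak centre.

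Members were matched by RefSeq symbol (GRCm38.p6), older symbols included, and none was found under an older one. All 3980 and 3970 listed genes of muscle and C2C12 were matched likewise, with 3808 and 3967 found. Members and lists were chosen with earlier results of these data known. Members were named by role, by highest and lowest fold enrichment, by 3 or more peaks, and by the list they are in. Of the other lists, the gene with the highest value was named. In C2C12, 3 of 38 member peaks lie inside their GRCm38 gene span, so no C2C12 coordinates are given. The GGAC positions were checked against RefSeq start windows, where 60 of 60 in peaks of 1 exon block matched, and 21 of 35 in peaks of several blocks. The code that compares positions was run on simulated peaks, with 1 peak per list and 1 start. It called 1000 of 1000 planted shared pairs and 0 of 1000 separate pairs, which were set far apart. Several starts and peaks per gene were not simulated, so this check cannot say how often unrelated peaks match. Columns of values for single samples left out numbered 0. Alternatives to the filter, the peak chosen per gene and the start used were tried. Python 3.11.15, pandas 2.3.3, numpy 2.4.6, scipy 1.17.1 and matplotlib 3.10.9 were used.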

Additional observations from a re-analysis of the deposited data

How the results depend on the processing

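No paired analysis was possible because each list pools its libraries and no result comes from a test, and leaving out a library was not possible for the same reason. When weak peaks under the median fold enrichment of all peaks were left out, 14 members were listed in muscle and 8 in both lists. Of the 134 other genes of RNA processing 25 were then listed in muscle. Under this filter 10.1% of protein-coding genes were listed in muscle and 5.16% in both lists. Of the member peaks kept, 71.4% held GGAC. The share over all peaks under the same filter is not given here, so 71.4% cannot be set beside the 70.6% of all peaks. With C2C12 peaks at or above the median length alone, 15 members were listed. The median fold enrichment of 8.92 was 6.49 with the log2 mean over the peaks of each gene, 7.96 with the longest peak and 8.0 with 3'UTR and coding peaks alone. Another 16 values stayed within the limits set for a move, which were wider for counts than for fold enrichments. Among them, 7 rather than 10 members shared a place when the 5′ end of the gene span was the only start. The share thereby went from 62.5% beside 61.2% of all genes in both lists to 43.8% beside 54.9%, from just above to below it. Also among them, 9 rather than 10 members had 3 or more muscle peaks with overlapping peaks counted once. Choices added after the data were seen were this start, the centre of the C2C12 peak, and counting overlapping peaks once. Depth and the spread between libraries are unknown, so weak and strong peaks cannot be compared for reliability.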
